A study of Mus musculus with 19 samples.

Results

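The hotspots described here were meiotic break sites that the STUS form of PRDM9 directed and that were cut mainly on the B6 chromosome of a B6 by STUS hybrid male. They were chosen by 3 values of the B6/STUS library: an autosomal center, the allele that the authors assigned (STUS), and more than 75% of the DMC1 reads coming from the B6 chromosome. This selected 4411 of the 8865 autosomal STUS hotspots in that library, of 17309 autosomal hotspots of any allele and of 74327 hotspots listed over the 5 DMC1 libraries of the series. They are called B6-cut STUS hotspots below. Since the B6 share chose them, its values in B6/STUS are a description only, as is the DMC1 signal of the same library. A B6 share above 75% shows which homolog was cut, and the sequence of the STUS chromosome was not analysed here.

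PRDM9 is a histone methyltransferase of meiotic cells whose zinc-finger array binds particular DNA motifs, marks them with H3K4me3 and so places the programmed double-strand breaks of meiosis. DMC1, a recombinase, loads onto the single-stranded ends of a resected break, and sequencing the DNA it holds (DMC1 SSDS) maps where, and on which homolog, breaks were made. Because repair copies the uncut homolog, motifs are lost over generations in the lineage that carries the matching allele, a process called hotspot erosion, and a hybrid then cuts the homolog of the other parent.

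The study mapped breaks in testes of hybrid males with native or engineered Prdm9 alleles. Whole testis of adult males gave 1 DMC1 library for each genotype, so no value has a replicate error between genotypes. The first 2 libraries came from the cross of B6 with STUS, an inbred strain derived from wild house mice of the musculus subspecies: the unmodified Prdm9 genotype B6/STUS and the genotype HUM/STUS, in which the B6 allele carries the zinc-finger array of the human gene. The STUS allele and both sets of chromosomes were thus present in each. The 3 further libraries, from B6 by SPRETUS males of the genotypes B6/SPRETUS, HUM/SPRETUS and CAST/SPRETUS, lacked the STUS allele. CAST names a B6 allele that carries the zinc fingers of the castaneus allele, and H3K4me3 ChIP-seq was made for that cross with 2 or 3 samples of each genotype. Labels name the hybrid B6xSTUS, while the study's text mostly places STUS first. On the single X chromosome of these males, 645 of 651 hotspots with a B6 share in B6/STUS (99.1%) and 397 of 406 in HUM/STUS (97.8%) drew over 75% of their reads from B6, and the X was left out below.

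Sequence could be shown only where a hotspot center fell in a promoter window of RefSeq (250 bases before to 50 after a gene start, GRCm38.p6). This was so for 20 of the 4411 B6-cut STUS hotspots (0.453%), none of them among the 10 strongest, so the windows below were picked after their values were seen. The 4 strongest are printed 5′ to 3′ on the strand of the gene, as the B6 reference has them, which is the homolog that was cut. Capitals mark the 31 bases centered on the hotspot.
Gm51457, a long noncoding RNA gene, chr7:127076744-127077043, plus strand: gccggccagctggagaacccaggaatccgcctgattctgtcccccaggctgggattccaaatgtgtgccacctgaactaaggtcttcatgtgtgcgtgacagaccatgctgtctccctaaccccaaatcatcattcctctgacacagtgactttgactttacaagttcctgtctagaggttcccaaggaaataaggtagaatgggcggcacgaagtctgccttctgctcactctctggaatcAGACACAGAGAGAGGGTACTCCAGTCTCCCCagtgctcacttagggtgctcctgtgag
Tssk2, which encodes a testis-specific serine kinase, chr16:17898387-17898686, plus strand: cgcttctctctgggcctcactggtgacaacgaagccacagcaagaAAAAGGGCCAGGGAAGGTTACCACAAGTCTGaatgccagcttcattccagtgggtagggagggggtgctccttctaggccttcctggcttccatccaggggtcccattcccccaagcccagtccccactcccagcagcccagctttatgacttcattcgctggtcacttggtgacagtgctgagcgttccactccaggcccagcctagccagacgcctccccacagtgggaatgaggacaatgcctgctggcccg
Ear10, which encodes an eosinophil-associated ribonuclease, chr14:43923547-43923846, minus strand: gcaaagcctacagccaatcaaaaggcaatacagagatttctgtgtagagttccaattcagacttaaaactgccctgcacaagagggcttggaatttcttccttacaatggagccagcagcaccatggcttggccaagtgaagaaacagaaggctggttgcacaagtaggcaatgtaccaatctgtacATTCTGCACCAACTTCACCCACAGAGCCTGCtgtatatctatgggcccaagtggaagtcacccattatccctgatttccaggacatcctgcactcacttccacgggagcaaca
Gm51454, a long noncoding RNA gene, chr7:114036500-114036799, minus strand: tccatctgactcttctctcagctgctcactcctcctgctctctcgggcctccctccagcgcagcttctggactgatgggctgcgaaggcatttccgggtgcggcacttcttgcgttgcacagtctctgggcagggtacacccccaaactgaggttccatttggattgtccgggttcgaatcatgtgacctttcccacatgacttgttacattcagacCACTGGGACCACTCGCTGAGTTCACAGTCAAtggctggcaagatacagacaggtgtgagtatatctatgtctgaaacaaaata
The center at Gm51457 lay 7 bases after the gene start, with a DMC1 signal of 623 and 97.6% of reads from B6 in B6/STUS, and 230 and 97.9% in HUM/STUS. The center at Tssk2 lay 190 bases before the start of the gene (signal 343, all reads from B6), and HUM/STUS gave a signal of 93.6 and 97.2% from B6. Ear10 belongs to a family of near-identical copies, among which reads can be shared. Its center, 48 bases before the start, had a signal of 341 in B6/STUS and 143 in HUM/STUS, with 100% of reads from B6 in both. At Gm51454 the center lay 18 bases before the start, with a signal of 321 and 99.6% from B6 in B6/STUS, and 76.8 and 94.4% in HUM/STUS. All 4 had been selected as cut mainly on the B6 chromosome in B6/STUS, and each was so in HUM/STUS too.

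The B6-cut hotspots were the strongest of the STUS hotspots. Their median DMC1 signal in B6/STUS was 86.3 (95% order-statistic interval 80.4 to 92.0, quartiles 34.1 and 214), with a range from 7.89 to 1055. At the 2952 matched STUS hotspots, with 25 to 75% of reads from B6, it was 37.9 (interval 36.6 to 39.2), and at the 759 STUS-cut ones, with under 25%, it was 26.2 (24.3 to 28.2). The ratio of the first median to the second was 2.27. Of STUS hotspots with a B6 share, 54.3% were B6-cut (95% Wilson interval 53.2 to 55.4%), and these held 73.3% of the signal of all autosomal STUS hotspots and 36.4% of the signal of all autosomal hotspots. Another 743 STUS hotspots had no B6 share and a median signal of 15.6. The counterpart in the opposite direction, B6-allele hotspots with under 25% of reads from B6, numbered 2813 and had a median signal of 137. These intervals cover the number of hotspots in a library only, and how the authors scaled the signal to sequencing depth is not given in the sources used here.

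The signal did not rise evenly with one-sidedness. Median signals were 45.0 at 251 hotspots with over 75 and up to 80% of reads from B6, 38.1 at 583 with up to 90%, and 39.6 at 587 with up to 95%. They then rose to 88.6 at 1379 hotspots with up to 99% and to 278 at 949 hotspots above 99% but below 100%. At the 662 hotspots where every assigned read came from B6 the median fell back to 53.8. The class between 99 and 100% was 21.5% of the B6-cut hotspots and held 45.1% of their signal. No hotspot of that class had a signal below 39.5, whereas the class at 100% began at 8.93. A share just below 100% can be reached only by a hotspot with many assigned reads, while a share of 100% can also be reached with few. The number of reads behind a DMC1 share is unknown, and its part in this pattern was not tested. Hotspots at 99% or more had 4.39 times the median signal of those at 90% or less, and the ratio was 7.11 without the hotspots at exactly 100%. It was 2.99 with means, 2.05 with classes by the HUM/STUS share and 1.93 with the HUM/STUS signal at recalled hotspots, above 1 in each. Across all 4411 hotspots Spearman's rho between B6 share and signal was 0.349 and Pearson's r 0.298, and across the 3749 below 100% they were 0.616 and 0.387, both values of a point coming from the same reads. Against the signal of HUM/STUS, at 2061 recalled hotspots below 100%, they were 0.417 and 0.231.

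**Figure D1:**
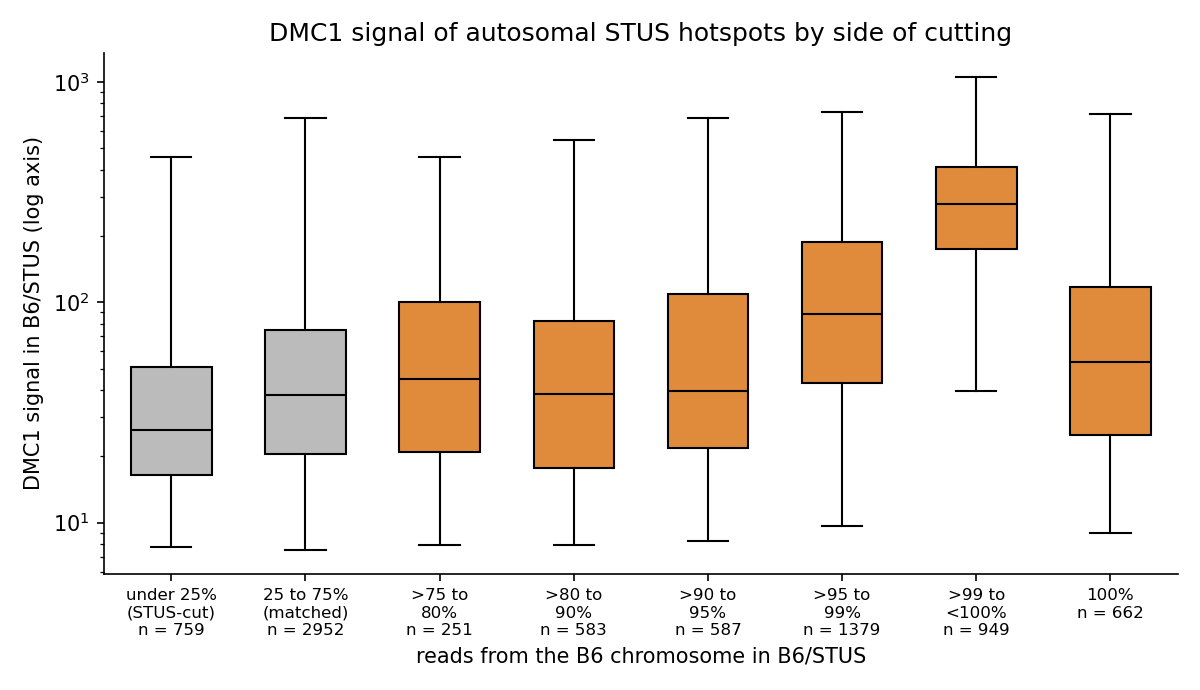
DMC1 signal in B6/STUS (log axis) of autosomal STUS hotspots, by the percent of reads from the B6 chromosome in the same library; boxes give median and quartiles, whiskers the lowest and highest hotspot, orange the B6-cut classes. The class above 99 and below 100% stands highest, with a median of 278, and the class at 100% lies far lower, at 53.8.

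Near the threshold the hotspots were ordinary in strength. Those with a B6 share above 75 and up to 77% numbered 84, with a median signal of 53.4, and those from 73 to 75% numbered 119, with 34.8. Just inside were a hotspot in Trim37, which encodes a ubiquitin ligase (75.1% from B6, signal 98.3), one in Gm829 (75.2%, 73.6), and one on chromosome 3 at position 149802940, 814 kb from Adgrl2 (75.3%, 69.8). The hotspot in Trim37 was found again in HUM/STUS, with 63.6% of reads from B6, and the others were not. Just outside, at exactly 75% as were 29 STUS hotspots, the strongest 3 lay in Nbeal1 (signal 297), 140 kb from Ftmt (85.2) and in Wdr11 (77.6). The hotspots in Nbeal1 and Wdr11 had 61.4 and 49.2% of reads from B6 in HUM/STUS. None of the 3 that HUM/STUS listed exceeded 75% there.

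HUM/STUS, which shares the STUS allele, recalled 2302 of the 4411 B6-cut hotspots as STUS hotspots with centers within 500 bp (52.2%, 95% Wilson interval 50.7 to 53.7%), where 39.2% of all 8865 STUS hotspots were recalled. Matched hotspots were recalled at 30.6% (903 of 2952, interval 29.0 to 32.3%) and STUS-cut ones at 26.1% (198 of 759, interval 23.1 to 29.3%). Counting hotspots of any allele, 2355 B6-cut hotspots had a counterpart (53.4%), against 21.8% of all autosomal hotspots of B6/STUS, and the 53 additional ones had no allele assigned in HUM/STUS. The authors assigned alleles by comparing mice, and whether HUM/STUS entered the STUS assignment in B6/STUS, and so raised recall, was not tested. A match by position was rare at hotspots of the B6 allele, which HUM/STUS lacks. There, 16 of 6115 had a HUM/STUS hotspot within 500 bp (0.262%). The B6 label also rests on comparing mice, and whether this kept the number low was not tested. Each recalled B6-cut hotspot had a partner of its own. The median distance between centers was 47.5 bp, the largest 478 bp, and 71.1% lay within 100 bp.

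The difference in recall between the classes went with their strength. Over deciles of the signal of all STUS hotspots with a B6 share, recall of B6-cut hotspots rose from 1.11% in the lowest (3 of 271) through 13.5% in the fifth and 59.8% in the seventh to 98.1% in the highest (730 of 744). Matched hotspots of the same deciles were recalled at 1.32, 19.2, 67.5 and 98.3%, above the B6-cut ones in 9 of 10 deciles. Given the spread of B6-cut hotspots over the deciles, matched hotspots would have been recalled at 55.7%, and STUS-cut ones at 47.9%, against the 52.2% of the B6-cut ones. The value of the STUS-cut class rests on 13 and 10 hotspots in the 2 highest deciles, with 11 and 3 recalled. Over the other 8 deciles the values were 36.3% for matched, 44.6% for STUS-cut and 31.6% for B6-cut hotspots, and STUS-cut ones were recalled more often than B6-cut ones in 8 of 8 and matched ones in 7 of 8. The B6-cut class made up 91.5% of the highest decile and 33.3% of the lowest. Recall followed the one-sidedness classes in the same way, from 28.6% between 80 and 90% to 90.2% between 99 and 100%, and 36.4% at exactly 100%. HUM/STUS listed 10031 autosomal hotspots, fewer than B6/STUS, with a median signal of 33.9 against 46.8. The signals of its autosomal hotspots summed to 528883, against 1810330 in B6/STUS. How far the weaker library limited recall was not tested.

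**Figure D2:**
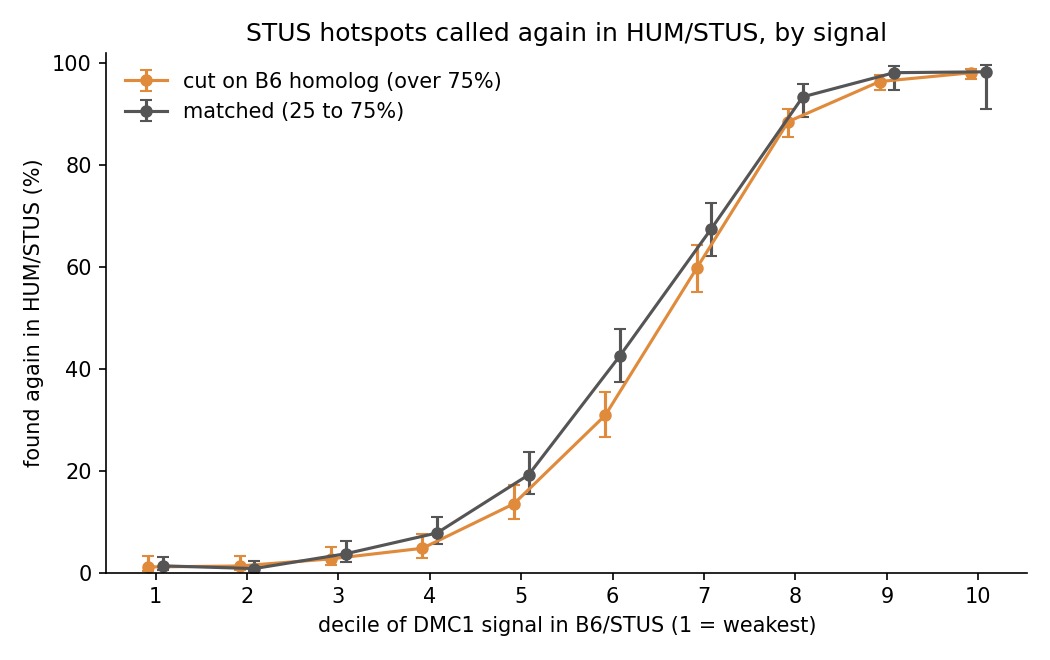
Percent of autosomal STUS hotspots of B6/STUS with a STUS hotspot of HUM/STUS within 500 bp, by decile of DMC1 signal in B6/STUS; points are B6-cut (orange) and matched (grey) hotspots, bars 95% Wilson intervals. Both classes rise together from about 1% to 98%, with matched hotspots higher in 9 of 10 deciles, most in the sixth (42.6 against 30.9%).

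The side of cutting was largely the same in the second library. A B6 share was listed in HUM/STUS for 2243 of the 2302 recalled B6-cut hotspots, and at 2041 of them (91.0%, interval 89.7 to 92.1%) it again exceeded 75%, where 2052 of 3272 STUS hotspots with a share in both libraries did so (62.7%). Another 201 were matched in HUM/STUS (8.96%), and 1 hotspot drew less than 25% from B6. Of recalled matched hotspots, 11 of 835 exceeded 75% in HUM/STUS, and of recalled STUS-cut ones 0 of 194 did. Read from the other direction, 2111 autosomal STUS hotspots of HUM/STUS exceeded 75%, and 2041 of the 2052 with a share in B6/STUS (99.5%) were B6-cut there. A STUS hotspot above 75% in HUM/STUS was thus nearly always above 75% in B6/STUS. On the STUS side, of 213 hotspots under 25% in HUM/STUS with a share in both, 163 were STUS-cut and 49 matched in B6/STUS.

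The more one-sided a hotspot was in B6/STUS, the more often it stayed so, up to the class at exactly 100%. The percent still above 75% in HUM/STUS was 18.2% of 77 hotspots in the class up to 80%, 56.8% of 162 up to 90%, 89.1% of 184 up to 95%, 96.1% of 747 up to 99% and 99.3% of 856 above 99 and below 100%. At exactly 100% it was 93.5% of 217. These classes were cut from the selecting share and start at different distances above 75%, and the part of this in the order was not tested. The percent also rose with signal, from 76.1% of 46 B6-cut hotspots in the fifth decile to 98.4% of 728 in the highest. Of the 201 that became matched, 133 came from the classes up to 90%, although these classes supplied 239 of the 2243 recalled hotspots. The median B6 share in HUM/STUS was 92.9% (quartiles 86.6 and 96.7%), and the median change, HUM/STUS minus B6/STUS, was -4.88 percentage points (interval -5.15 to -4.55), and -3.15 points at hotspots of at least the median HUM/STUS signal. It was negative at 2046 hotspots, positive at 170 and 0 at 27, and 75.2% of hotspots moved by at most 10 points.

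A lower B6 share in HUM/STUS was not limited to the selected hotspots. The hotspots were selected on a high share, so part of a decrease may follow from the choice alone, which was not tested. At matched STUS hotspots the median change was -9.29 points (interval -10.5 to -8.11, 77.1% of 835 lower), and at STUS-cut ones 9.45 points (8.28 to 11). In steps of 10 points over all recalled STUS hotspots, the change was -5.12 between 40 and 50%, -9.52 between 50 and 60% and -14.8 between 60 and 70%. Below 10% it was 10.3 points. Both ends of the scale moved inward, and the steps from 40 to 70% moved toward STUS. The change was -1.30 points between 20 and 30% (interval -5.33 to 2.73) and -0.611 between 30 and 40% (-4.09 to 4.06). Across the 2243 recalled B6-cut hotspots Pearson's r between the B6 shares of the libraries was 0.685 and Spearman's rho 0.502, each point being a hotspot read in the same 2 libraries.

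**Figure D3:**
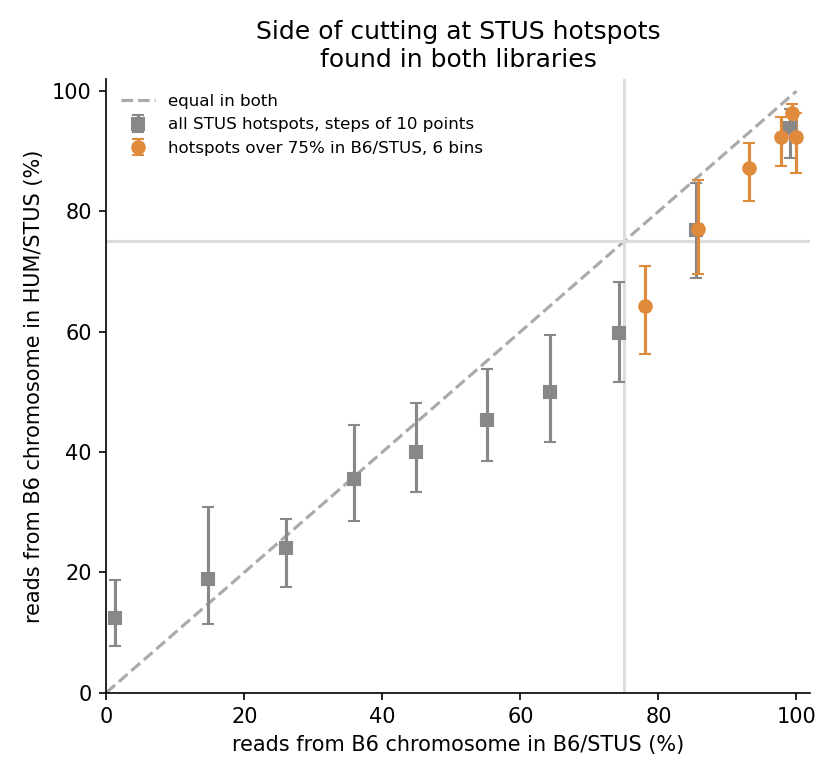
Percent of DMC1 reads from the B6 chromosome at STUS hotspots found in both libraries; symbols are medians of classes of the B6/STUS share (grey squares all STUS hotspots in steps of 10 points, orange circles the 6 classes above 75%), bars the quartiles in HUM/STUS, the dashed line equal shares. The class up to 80% falls to a median of 64.3% in HUM/STUS, while that above 99 and below 100% stays at 96.4%.

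The order of strength was kept in HUM/STUS. At the 2302 recalled B6-cut hotspots Pearson's r between the log2 signals of the libraries was 0.888 and Spearman's rho 0.905, over hotspots read in the same 2 libraries. The median signal there was 46.6 in HUM/STUS. The tables were made separately, so a ratio of signals between them is of use only beside the same ratio in another class. The median ratio of HUM/STUS to B6/STUS was 0.256 at B6-cut hotspots (interval 0.251 to 0.260) and 0.281 at matched ones (0.273 to 0.289), and the first was 0.908 of the second. At STUS-cut hotspots it was 0.363 (0.342 to 0.391). The ratio also differed between deciles of signal, and within deciles it was lower at B6-cut than at matched hotspots in 7 of 10. Across the 6 classes of one-sidedness it ranged only from 0.240 to 0.262. At B6-cut hotspots the median ratio was 1.21 in the lowest decile, with 3 recalled, and 0.281 in the highest.

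B6-cut hotspots lay on every autosome, and their number followed its span. Counts ran from 138 on chromosome 19 to 338 on chromosome 2, with Pearson's r of 0.895 and Spearman's rho of 0.883 against the span between the first and last listed hotspot over 19 autosomes of the same library. Density was lowest on chromosome 6 (1.56 per Mb) and highest on chromosome 19 (2.38 per Mb), with chromosomes 11 and 18 close to the latter (2.33 and 2.32 per Mb). The percent of STUS hotspots with a B6 share that were B6-cut ranged from 49.7% on chromosome 6 (interval 45.1 to 54.2%) to 59.7% on chromosome 19 (53.3 to 65.9%). The intervals of these extremes overlap. Median signal was lowest on chromosome 1 (65.1) and highest on chromosome 19 (113).

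Recall also differed among autosomes. It was lowest on chromosome 17 (42.0%, interval 34.6 to 49.7%) and highest on chromosome 12 (59.5%, interval 52.6 to 66.1%), and the intervals of these extremes, picked from 19, did not overlap. Over the 19 autosomes, recall showed no clear relation to the median signal of the B6-cut hotspots (Pearson's r -0.04, Spearman's rho -0.26). The percent of recalled hotspots still above 75% from B6 ranged from 86.3% on chromosome 4 to 96.4% on chromosome 10. The median change in B6 share was negative on each autosome, from -6.27 points on chromosome 18 to -3.58 on chromosome 16.

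**Figure D4:**
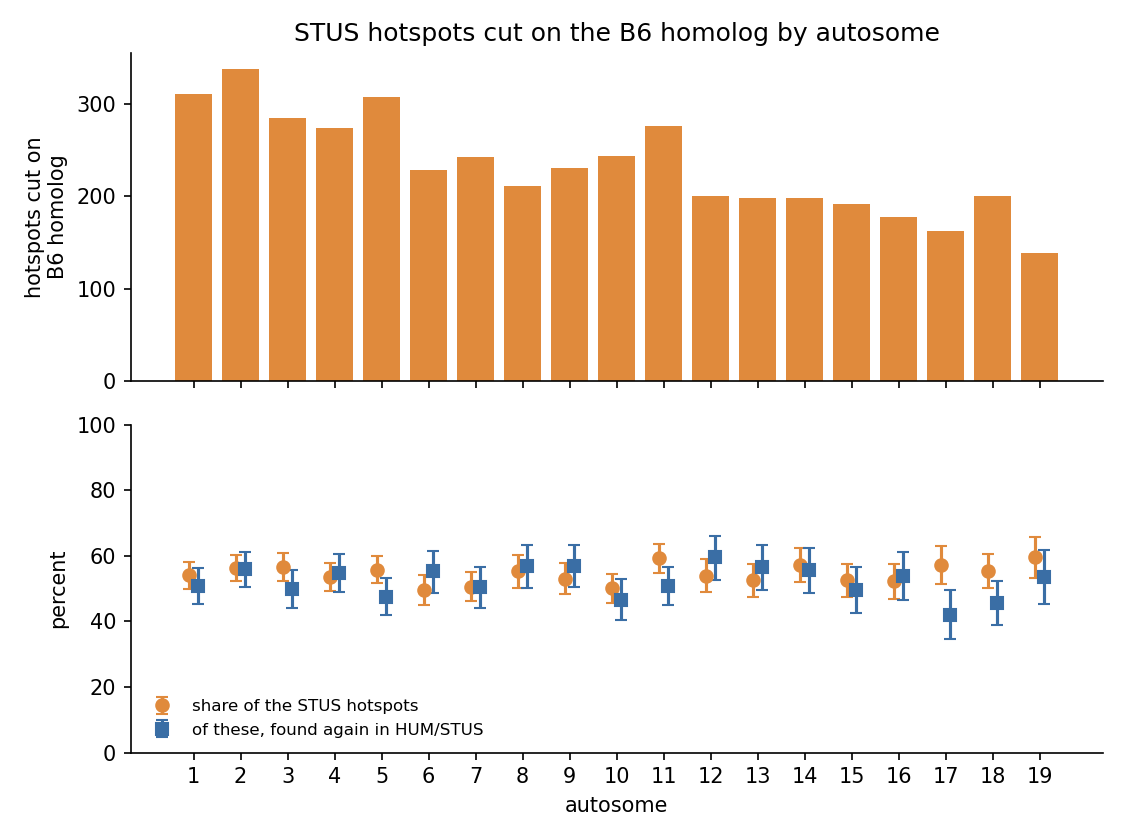
B6-cut STUS hotspots by autosome: bars, their number; circles, their percent among the STUS hotspots of the autosome that have a B6 share; squares, the percent of them found again in HUM/STUS; error bars, 95% Wilson intervals. The number falls from the long to the short autosomes, while the share stays between 49.7 and 59.7%.

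Within autosomes the hotspots were spread much as all hotspots of the library. The centromeric, middle and distal sections of each span, equal in length, held 32.3, 30.7 and 37.0% of B6-cut hotspots, against 33.7, 33.8 and 32.4% of matched STUS hotspots and 32.7, 32.0 and 35.3% of all autosomal hotspots of B6/STUS. The median distance to the next B6-cut hotspot was 160 kb, and to the next hotspot of any allele 41.5 kb. Another hotspot lay within 2000 bp of 29 (0.657%), against 185 of all autosomal hotspots (1.07%). Of B6-cut hotspots, 52.1% lay in a protein-coding gene of RefSeq (interval 50.6 to 53.6%), near the 53.6% of matched, the 49.3% of STUS-cut (45.7 to 52.8%) and the 53.0% of B6-allele hotspots. A gene start lay within 1 kb of 93 B6-cut hotspots (2.11%, interval 1.72 to 2.58%), of 29 matched ones (0.982%, interval 0.685 to 1.41%), of 13 STUS-cut ones (1.71%, interval 1 to 2.91%) and of 98 B6-allele hotspots (1.60%, interval 1.32 to 1.95%). The gene table gives no exons, so exonic and intronic positions were not told apart.

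The 10 strongest B6-cut hotspots had signals of 820 to 1055, and all 10 were recalled above 75% in HUM/STUS. This was near the rate of the highest decile of signal, to which they belong. There, 730 of 744 B6-cut hotspots were recalled (98.1%), and 98.4% of the 728 with a B6 share in HUM/STUS exceeded 75%. Their B6 shares ran from 99.2 to 99.8% in B6/STUS and from 96.3 to 100% in HUM/STUS. The strongest lay on chromosome 15 at position 7748612, 61.4 kb from Gdnf, the growth factor that maintains spermatogonial stem cells, with 99.6% of reads from B6 and 99.1% in HUM/STUS, where its signal was 284. Another, on chromosome 19 at position 58234436, lay 1.15 kb from Gfra1, which encodes the receptor subunit for that factor (signal 889, 99.7% and 99% from B6). Protein-coding genes held 4 of them: Cdk14, a cyclin-dependent kinase (987, 99.6%), Sorcs1, a sortilin-family receptor (885, 99.7%), Zfc3h1, a zinc-finger protein (846, 99.2%), and Mllt3, a chromatin reader of acetylated histones (820, 99.3%). In HUM/STUS, Cdk14 and Mllt3 had 100% of reads from B6, Zfc3h1 98.6% and Sorcs1 97.0%. The hotspot on chromosome 3 at position 78201341 lay 861 kb from the nearest protein-coding gene, Rapgef2, and had the largest signal of the 10 in HUM/STUS (381, against 895 in B6/STUS). The remaining 3 lay 9.69 kb from 2310061N02Rik (signal 986), 32.3 kb from Zswim6 (847) and in the long noncoding RNA gene Gm4718 (841).

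The strongest B6-cut hotspot of each of the 19 autosomes was likewise recalled above 75%, with signals from 614 to 1055. All of these signals also lie in the highest decile, where nearly all B6-cut hotspots were recalled above 75%. The smallest of these signals belonged to the hotspot of chromosome 9, in Nrg4, a growth factor of the neuregulin family, with 99.5% of reads from B6 and 97.2% in HUM/STUS. Beyond the genes named above, the set included Grm8 on chromosome 6, a glutamate receptor (779, 99.5% and 98.7% from B6), Vac14 on chromosome 8, a scaffold of lipid kinase complexes (657, 99.9% and 96.8%), and Fdft1 on chromosome 14, the squalene synthase (647, 99.6% and 97.9%). Less one-sided were Map4k5 on chromosome 12, which encodes a protein kinase (685, 90.7% and 83.7% from B6), and a hotspot on chromosome 1 239 kb from Gm597 (658, 93.8% and 92.8%). Every one of the 19 had been selected as cut mainly on B6 in B6/STUS, and each was so in HUM/STUS too.

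Strong hotspots were not all recalled or kept on one side. Of the 2206 B6-cut hotspots at or above the median signal of their class, 196 were not recalled as STUS hotspots (8.88%), and 143 of the 1979 with a B6 share in HUM/STUS no longer exceeded 75% (7.23%). Below that median, 59 of 264 no longer did (22.3%). Among the stronger ones, the 3 with the lowest B6 share in HUM/STUS had fallen to 27.3% (80.9% in B6/STUS, 73.4 kb from Pudp on chromosome 18), 38.5% (76.7%, 133 kb from Dkk2, a Wnt antagonist) and 39.3% (76.7%, 1301 kb from Igfbp7). Their HUM/STUS signals were 28.6, 27.6 and 32.2, below the 33.9 that was the median of that library. Of the 196, 39 had a HUM/STUS hotspot within 500 bp to which the STUS allele was not assigned, and 157 had none of any kind. The 3 strongest of these 157 had signals of 371 (1.21 kb from Tfdp1, the partner of E2F factors), 250 (24.5 kb from Asb17) and 239 (in Ppp3ca, the catalytic subunit of calcineurin). Each had over 99% of reads from B6 in B6/STUS. Of the 744 B6-cut hotspots of the highest decile, 14 were not recalled as STUS hotspots, and 13 of the 14, with signals of up to 457, had such a hotspot without the STUS label at their position.

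The 3 libraries without the STUS allele gave the background for a match by position, and 1 of them exceeded it. In B6/SPRETUS 22 of 4411 B6-cut hotspots had a hotspot of any allele within 500 bp (0.499%) and in HUM/SPRETUS 34 (0.771%). In CAST/SPRETUS it was 485 (11%, interval 10.1 to 12.0%), 470 of them hotspots assigned to the CAST allele and 15 without an allele. The 470 were 10.7% of B6-cut hotspots and 13.5% of the 3470 autosomal CAST hotspots, where 8.51% of all 8865 STUS hotspots lay at a CAST hotspot. Of 6115 hotspots of the B6 allele, 3373 (55.2%) lay near a hotspot of B6/SPRETUS, which carries that allele, and 46 (0.752%) near one of HUM/SPRETUS. Near a CAST/SPRETUS hotspot lay 22 (0.360%). Positions shared with CAST/SPRETUS were thus seen at STUS hotspots and hardly at B6-allele ones. Hotspots assigned to SPRET made up 22 of the 22 matches in B6/SPRETUS, 21 of the 34 in HUM/SPRETUS and 0 of the 485 in CAST/SPRETUS. The alleles were assigned by the authors by comparison with other mice, and how that affects the shared positions was not tested.

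The overlap with CAST hotspots grew with signal at B6-cut hotspots, and up to the ninth decile at matched ones. Of matched hotspots 6.88% lay at a CAST hotspot (203, interval 6.02 to 7.85%) and of STUS-cut ones 4.61% (35, interval 3.33 to 6.35%). Within B6-cut hotspots it rose from 6.64% in the lowest decile of signal to 18.5% in the highest (138 of 744, interval 15.9 to 21.5%). At matched hotspots it rose from 4.23% in the lowest to 15.5% in the ninth (25 of 161, interval 10.7 to 21.9%), where B6-cut ones had 13.6%, and was 8.47% in the highest (5 of 59, interval 3.67 to 18.4%). Matched hotspots had the larger overlap in 4 of 10 deciles. Given the spread of B6-cut hotspots over the deciles, the overlap would have been 8.62% for matched and 6.44% for STUS-cut hotspots, against 10.7%, where the STUS-cut value again rests on few hotspots in the 2 highest deciles. The matched value rests in part on the 59 hotspots of the highest decile, where the gap to B6-cut ones was widest (8.47 against 18.5%). B6-cut hotspots at a CAST hotspot had a median signal of 160, and the others 79.0. Their recall in HUM/STUS was 68.3% (interval 64.0 to 72.3%) against 50.3% (48.7 to 51.8%). Once recalled, 92.0 and 90.8% stayed above 75% from B6, so the side of cutting did not separate them.

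In CAST/SPRETUS the shared positions were cut and marked on both homologs about as often as other CAST hotspots. The B6-cut hotspots were selected on their share in B6/STUS, so that share is not compared here. The B6 share of DMC1 reads in CAST/SPRETUS, listed for 350 of the 470, had a median of 50.9%, with 191 matched (54.6%, interval 49.3 to 59.7%), 103 above 75% and 56 below 25%. This was close to CAST hotspots away from STUS hotspots, of which 53.8% were matched and whose median was 50%. H3K4me3, which PRDM9 itself deposits, gave a median B6 share of 58.2% at 468 positions, with 70.5% matched (interval 66.2 to 74.5%) and a median of 406.5 reads carrying a SNP. Elsewhere in the CAST set it was 56.4%, with 69.8% matched. Matched STUS hotspots at a CAST hotspot were matched there more often, at 62.9% for DMC1 (interval 54.8 to 70.4%) and 77.2% for H3K4me3 (71.0 to 82.5%), with intervals that overlap those of the B6-cut ones. H3K4me3 enrichment over input, pooled over the samples of that genotype, was higher at the shared positions, with a median of 44.4 (quartiles 29.4 and 61.7) against 33.8 (22.0 and 49.8), as was the DMC1 signal, 34.1 against 23.9. The B6 chromosome, cut by STUS at these places, was thus bound and cut by CAST at about the same share as at its other hotspots. The other homolog was STUS in one cross and SPRETUS in the other, and the allele and the homolog cannot be told apart.

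**Figure D5:**
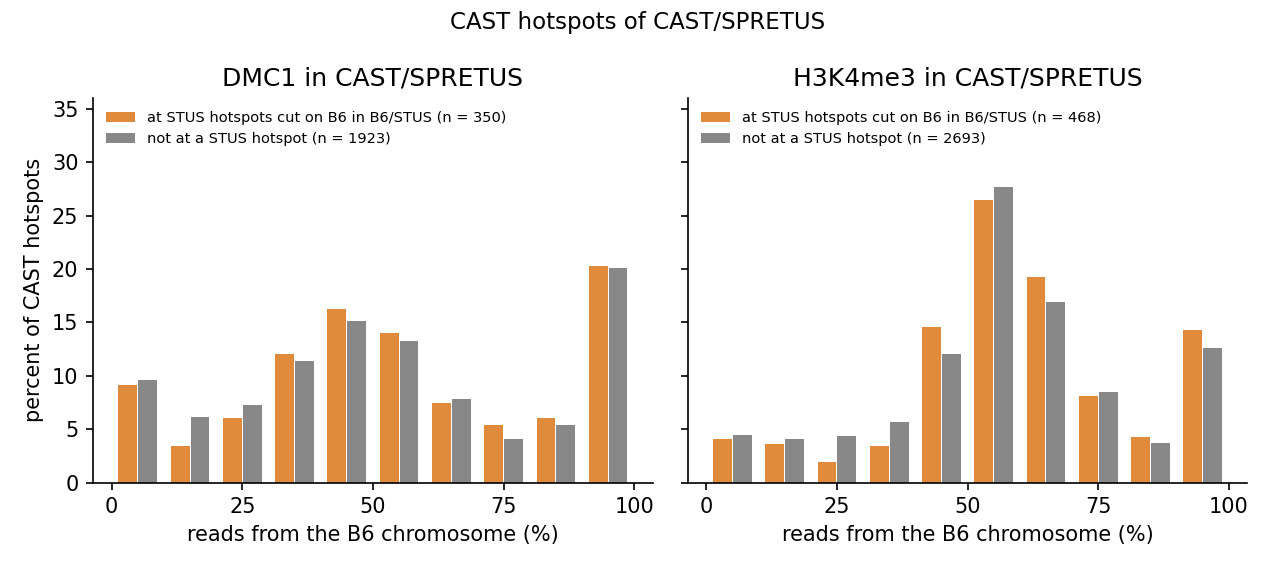
Percent of CAST hotspots of CAST/SPRETUS by the share of reads from the B6 chromosome, for DMC1 (left) and H3K4me3 (right), in steps of 10 points; orange, hotspots at a B6-cut STUS hotspot of B6/STUS, grey, hotspots not at any STUS hotspot. The 2 sets have nearly the same shape, with 20.3 and 20.1% of hotspots in the top step for DMC1.

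A CAST hotspot lay at 4 of the strongest hotspots per autosome, and these differed in side. At Map4k5 the CAST/SPRETUS library had a DMC1 signal of 155 with 48.5% of reads from B6, an H3K4me3 enrichment of 92.9 and 50.7% of 1425 H3K4me3 reads from B6 (Wilson interval 48.1 to 53.3%, counting error only). On chromosome 11 at position 110561295, 35.8 kb from Map2k6, 41.8% of 194 H3K4me3 reads came from B6 (35.0 to 48.8%). In Grm8 and Nrg4, in contrast, CAST/SPRETUS had 100% of DMC1 reads and 96.9 and 97.3% of H3K4me3 reads from B6, with low DMC1 signals of 10.1 and 15.5. The hotspot near Asb17, which HUM/STUS did not list, had a CAST hotspot with an H3K4me3 enrichment of 77 and 52.0% of 679 reads from B6 (48.2 to 55.7%). Among these 5 positions both homologs carried the mark to a similar degree at 3, and almost only the B6 homolog did at the other 2.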

How the data were processed

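Whole adult testis gave 1 DMC1 SSDS library for each of 5 genotypes, and H3K4me3 ChIP and input were made for 3 of them. Single-stranded reads were picked out and hotspots called from them by the authors. They attributed hotspots to alleles through other mice and split reads between homologs by SNPs. Not every hotspot had an allele, and 2270 autosomal ones of B6/STUS were listed as unknown. The submitters' processing notes name BWA and mm10. The DMC1 signal was deposited as the authors' caller gave it, and its scaling is not given in the sources used here. The authors' fraction of DMC1 reads from B6 has no read number beside it, so the depth behind it is unknown. H3K4me3 values were deposited as a ratio of enrichment over input and as a fraction from B6 with its count of SNP-carrying reads, taken here as pooled over samples. Tables were matched to genotypes by the alleles they name. A further 27 columns of values, including the authors' p-values, were not used.

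The members (the hotspots described) and lists were chosen with earlier results of these data known. Hotspots of different libraries were matched to the nearest center within 500 bp. Shares have 95% Wilson intervals and medians binomial order-statistic intervals. With 1 library per genotype no test was made, and no paired analysis was possible. Genes and promoter sequences are from RefSeq (GRCm38.p6). Hotspots were named by rule: the 10 strongest, the strongest per autosome, the 3 lowest B6 shares in HUM/STUS at or above the median signal, the 3 strongest with no HUM/STUS hotspot of any allele within 500 bp, and 3 on each side of the threshold. A planned search for a leading sequence word needs a genome and was not run. Python 3.11.15, numpy 2.4.6, pandas 2.3.3, scipy 1.17.1 and matplotlib 3.10.9 were used, and the computations were tested on simulated data.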

Additional observations from a re-analysis of the deposited data

How the results depend on the processing

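Of 34 other settings listed at the start, 17 left the value within its 95% interval, or within 1.5 times for a count, 17 moved it and 0 turned its direction. The number of B6-cut hotspots lay between 3577 and 5389. With one-sided set above 90% (above 60%), recall in HUM/STUS was 57.4% (48.4%), the percent still above 75% was 96.6% (81.1%), and the ratio of median signal to matched hotspots 2.89 (1.87). Within 250 bp recall was 50.2%. It was 76.7% for hotspots of at least the median signal of the library and 85.7% weighted by signal. The percent still above 75% was 96.2% at hotspots of at least the median HUM/STUS signal and 95.8% weighted by signal. The signal ratio of hotspots at 99% or more to those at 90% or less was 2.99 with means, 1.93 with the signal of HUM/STUS and 2.05 with classes by the HUM/STUS share. The ratio of B6-cut to matched hotspots was 1.65 with the signal of HUM/STUS. Weighted by signal, the share of B6-cut among STUS hotspots ranged from 67.7 to 83.8% over autosomes. Of 6 settings chosen after seeing the data, 2 moved the value: the signal ratio became 7.11 without hotspots at exactly 100%, and the change in B6 share -3.15 points at hotspots of at least the median HUM/STUS signal. The cause was not tested. The alternatives for the leading sequence word were not run. No paired analysis was possible because each genotype has 1 DMC1 library and no result comes from a test.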

Other observations

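STUS-cut hotspots, the class on the opposite side, were few at high signal. In the ninth decile 11 of 13 were recalled in HUM/STUS. In the highest decile of signal 7 of 10 STUS-cut hotspots had no STUS hotspot of HUM/STUS within 500 bp (the strongest with a signal of 391), while 14 of 744 B6-cut hotspots (1.88%) and 1 of 59 matched ones (1.69%) had none. Of the 14, 13 had a HUM/STUS hotspot without the STUS label, and whether the 7 had one is not given here. Only 35 STUS-cut hotspots lay at a CAST hotspot of CAST/SPRETUS, and at the 21 of them with a DMC1 B6 share its median was 12.0%, with 0 above 75%. For H3K4me3 the median at these 35 was 28.5%, with 19 matched (54.3%), 16 below 25% and 0 above 75%. STUS-cut hotspots were selected on a low B6 share in B6/STUS, and their number here is too small for more than these values.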
